A study of Homo sapiens with 15 samples.

Results

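The ATP-binding cassette (ABC) transporter family comprised 45 of the 21493 genes counted in NCI-H295R, a cell line from a human adrenocortical carcinoma that still synthesizes steroid hormones. Members were all genes whose symbol, looked up from the gene identifier, reads ABC, a letter from A to G and a number, and the 45 were also all protein-coding genes of the annotation that fit this rule. By subfamily they were 12 ABCA, 9 ABCB, 11 ABCC, 4 ABCD, 1 ABCE, 3 ABCF and 5 ABCG genes. RNA-Seq was available for 15 libraries of this cell line. In 3 of them cells carried a plasmid for ΔNFATC4, a constitutively active form of the calcineurin-dependent transcription factor NFATC4, and in 4 mock libraries the empty plasmid, with RNA taken 3 days after transfection on a wild-type background. In 4 libraries labelled NFATC4-KO the NFATC4 gene was the target of CRISPR/Cas9 in cells grown up from single cells, and 4 libraries labelled control came from cells that received empty plasmids in parallel. All cells were kept in DMEM-F12 with serum, insulin, transferrin and selenium. No stimulus is labelled for the knockout experiment, single-cell clones can differ for reasons other than the edit, and the transfected cells were a population in which the share that took up plasmid is not known here.

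ABC proteins bind ATP in paired cassettes and most use it to move lipids, drugs, conjugates, metals or peptides across membranes. ABCA1 and ABCG1 pass cholesterol to lipoproteins, ABCB1 (P-glycoprotein), ABCC1 and ABCG2 expel drugs from the cell, and ABCD2 and ABCD3 carry fatty acids into peroxisomes. ABCE1 and the ABCF proteins have no membrane part and act at the ribosome. P-glycoprotein is a known feature of the adrenal cortex, and cholesterol, which several ABCA and ABCG proteins handle, is the precursor of its steroids.

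Cells with active NFATC4 had more RNA of 4 low-level members than mock cells, and no change was detected in the most abundant member, ABCB1. The neighbouring chromosome 17 genes ABCA6, ABCA9 and ABCA10 were 9.73-fold, 5.10-fold and 4.71-fold higher, and the drug exporter ABCG2 was 3.96-fold higher. Mock was the group with the lowest mean for the 3 neighbours. ABCA6 in control 3 and NFATC4-KO 5, and ABCA9 in NFATC4-KO 5, lay within the range of the ΔNFATC4 libraries. The promoter windows of the 3 neighbours and of ABCB1 are shown here because the results turn on these genes, and NFAT proteins are known to bind the core GGAAA. Windows run from 250 bases before to 50 bases after the RefSeq start site on GRCh38.p14, 5′ to 3′ on the gene's own strand, and capitals mark GGAAA or, for the other strand, TTTCC.
ABCA6 (chr17:69141846-69142145, minus strand): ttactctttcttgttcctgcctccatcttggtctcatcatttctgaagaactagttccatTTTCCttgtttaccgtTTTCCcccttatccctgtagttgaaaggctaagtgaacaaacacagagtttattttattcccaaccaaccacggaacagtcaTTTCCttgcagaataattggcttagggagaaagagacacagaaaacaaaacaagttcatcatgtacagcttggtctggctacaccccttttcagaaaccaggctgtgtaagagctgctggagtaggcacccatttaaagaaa
ABCA9 (chr17:69060878-69061177, minus strand): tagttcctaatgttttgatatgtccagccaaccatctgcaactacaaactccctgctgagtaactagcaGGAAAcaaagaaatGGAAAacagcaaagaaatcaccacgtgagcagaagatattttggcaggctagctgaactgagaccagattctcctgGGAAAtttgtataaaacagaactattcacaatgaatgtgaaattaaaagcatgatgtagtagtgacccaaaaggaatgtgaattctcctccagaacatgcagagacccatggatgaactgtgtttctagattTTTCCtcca
ABCA10 (chr17:69228775-69229074, minus strand): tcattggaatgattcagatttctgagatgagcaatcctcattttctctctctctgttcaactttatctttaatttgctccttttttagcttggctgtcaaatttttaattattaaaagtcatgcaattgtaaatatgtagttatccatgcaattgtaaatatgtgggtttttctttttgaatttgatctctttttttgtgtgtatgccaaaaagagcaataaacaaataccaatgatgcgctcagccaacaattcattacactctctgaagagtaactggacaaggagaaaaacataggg
ABCB1 (chr7:87600835-87601134, minus strand): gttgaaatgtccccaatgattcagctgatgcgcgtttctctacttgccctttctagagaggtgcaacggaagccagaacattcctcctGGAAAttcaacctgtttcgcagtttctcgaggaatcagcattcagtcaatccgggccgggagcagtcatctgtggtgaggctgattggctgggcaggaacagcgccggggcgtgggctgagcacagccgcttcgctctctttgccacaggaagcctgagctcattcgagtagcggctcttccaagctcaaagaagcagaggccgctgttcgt
The ABCA6 window held 3 cores, all on the opposite strand, and the ABCA9 window held 4. The ABCA10 window held 0, as did the window of ABCG2, and the ABCB1 window held 1. These letters are common. Of the 35 members with a RefSeq window, 17 (48.6%) held the core on either strand, against 61.4% of 27305 promoters of the same length. The match is a description of the letters and not of binding.

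Depth was 18777737 to 28164717 counted reads per library, and values are given as CPM, which are counts scaled to the normalized size of each library. A count of 0 allows at most 3 counts, which is 0.107 to 0.160 CPM in these libraries, and these limits cover counting error only. NFATC4 itself lay at 87.5 to 106.1 CPM in mock and 329.6 to 359.2 CPM in ΔNFATC4 libraries, where reads from the plasmid are included. In control libraries NFATC4 was 114.5, 109.9, 44.8 and 54.0 CPM, and in NFATC4-KO libraries 92.7, 85.4, 57.5 and 53.6 CPM. The ranges overlapped, so NFATC4 RNA does not tell these labels apart, and the names below are those of the labels. RNA does not show whether NFATC4 protein was lost, which the paper examined by immunoblot. Control 1 and 2 and NFATC4-KO 1 and 2 (first set) stood apart from control 3 and 4 and NFATC4-KO 3 and 5 (second set): across genes the first set correlated with the mock mean at 0.987 to 0.99 and the second at 0.954 to 0.961. The sets are not named in the labels and were found from the expression of these same libraries. Adrenocortical markers were present in all libraries, with NR5A1 at 324.0 to 505.0 CPM and CYP11A1 at 339.8 to 521.5 CPM. The endothelial and leukocyte markers PECAM1, VWF and PTPRC did not exceed 0.202 CPM. Other markers of the same list were higher, with CD68 up to 1.63, COL1A1 up to 12.4, COL3A1 up to 41.0 and SYP up to 73.0 CPM.

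ABCB1 had by far the highest level of the family. Divided by the length of its annotated exons, its mean level over the 15 libraries was 82.3 ± 18.7 CPM per kb (SD, n = 15), which ranked 371 among 21400 genes. It made up 26.1 ± 2.99% of the summed ABC level per length, from 23.6% to 33.8% by library. In CPM without length, ABCB1 was 414, 454, 432 and 454 in mock, 437, 462 and 445 in ΔNFATC4, 543, 532, 799 and 745 in control and 483, 474, 670 and 588 in NFATC4-KO libraries. The 4 second-set values were the highest of the 15.

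**Figure D1:**
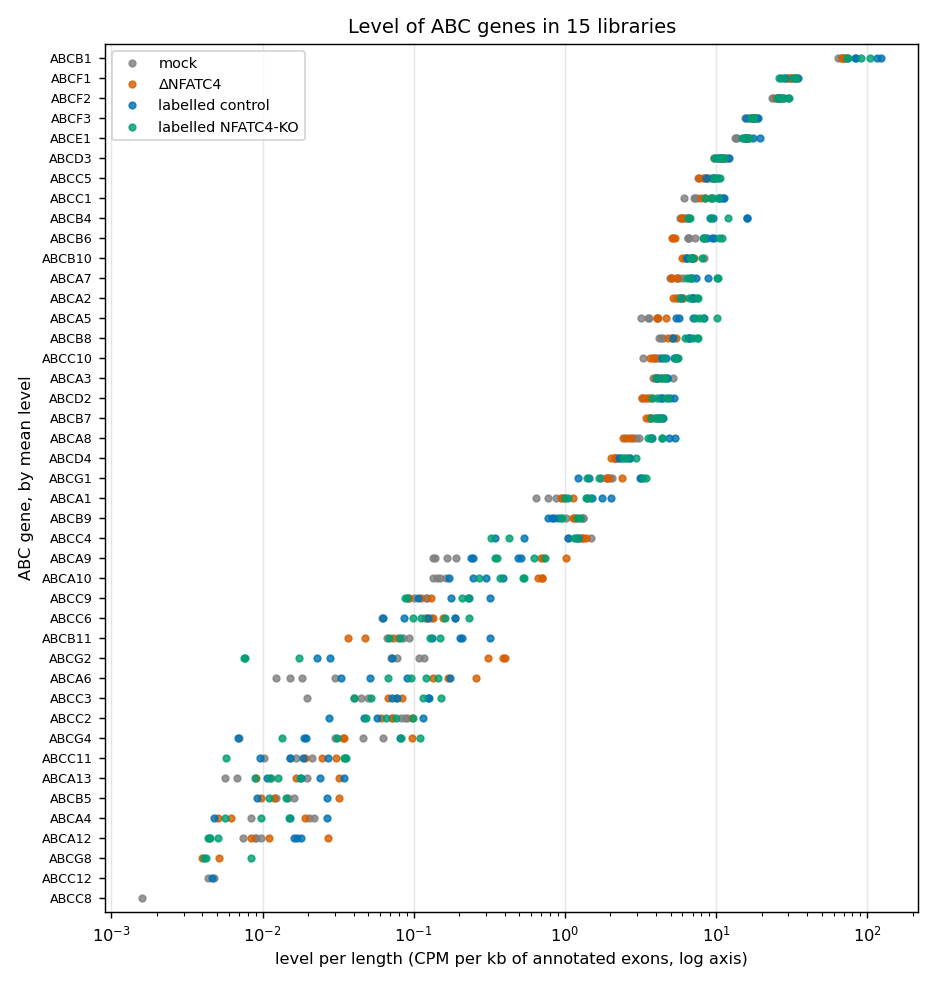
Level of ABC genes per length, in CPM per kb of annotated exons on a log axis, with 1 point per library coloured by group and genes ordered by their mean. ABCB1 sits above every other gene drawn, at 64.4 to 124.4 CPM per kb; points at 0, and ABCG5 with 0 counts in all libraries, are not drawn.

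Ribosome-associated members also ranked high per length. The translation factor ABCF1, which binds eIF2, had 31.0 CPM per kb (26.3 to 35.1 by library), and its relatives ABCF2 and ABCF3 had 26.5 (23.4 to 30.3) and 17.3 (15.4 to 18.9) CPM per kb. Of the 100-base windows of the ABCF2 transcript, 41.1% also occur in the overlapping same-strand gene ABCF2-H2BK1, so its counts may be split. The ribosome recycling factor ABCE1 had 15.7 CPM per kb (13.4 to 19.6). ABCD3, which brings branched-chain fatty acids to peroxisomes, had 10.9 CPM per kb (9.74 to 12.2). The conjugate exporters ABCC5 and ABCC1 had 9.11 (7.58 to 10.6) and 8.99 (6.13 to 11.3), and the phosphatidylcholine transporter ABCB4 had 8.59 CPM per kb (5.80 to 16.1). In this order the library ranges of ABCF2 and ABCF3 and those of ABCE1 and ABCD3 did not overlap, and the range of ABCB1 lay above those of all members named here. The other neighbours named here overlapped. At the low end, 11 members stayed under 1 CPM in all 15 libraries. The gut and liver sterol exporter gene ABCG5 had 0 counts in all of them, and its partner ABCG8 was among the 11. In all libraries 23 members were at 10 CPM or more.

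Of the 45 members, 35 had enough counts to be tested between ΔNFATC4 and mock. By edgeR's quasi-likelihood test at an adjusted p under 0.05 over all genes tested, 6 of the 35 were higher in ΔNFATC4 cells, beside 7.69% of all 14094 genes tested, and 1 was lower, beside 6.1%. At least 2-fold higher were 4 of the 35, beside 2.18% of all genes. Of these 4, ABCA6 and ABCG2 had enough counts to be tested only through the ΔNFATC4 libraries, where they are high. The other 28 were not called, and 25 of these had a log2 fold change within 0.25 of 0. The median log2 fold change was 0.03 over the 35 members and 0.00 over all genes. The 10 untested members were at most 0.607 CPM in these 7 libraries. In bulk RNA, more RNA per cell and more cells with the RNA cannot be told apart.

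**Figure D2:**
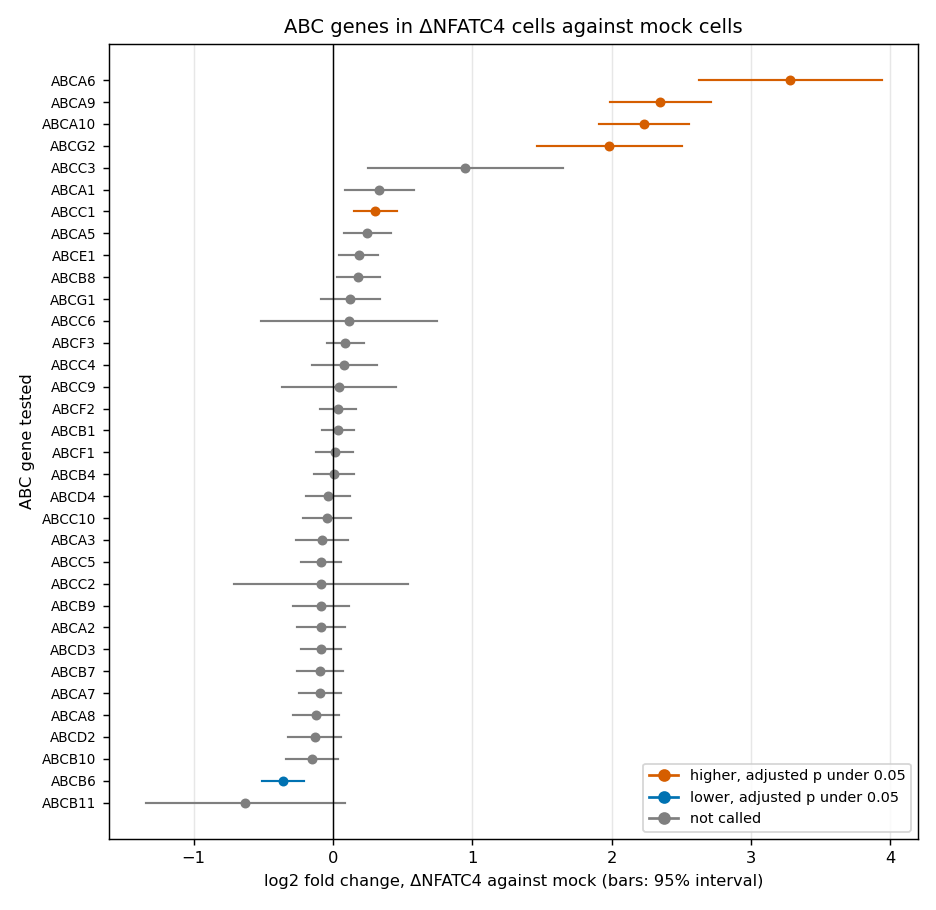
Log2 fold change of tested ABC genes in ΔNFATC4 against mock cells (3 and 4 libraries), with its 95% interval as a bar and colour for genes higher or lower at an adjusted p under 0.05. ABCA6, ABCA9, ABCA10 and ABCG2 lie at 1.99 to 3.28, above the other genes drawn, while ABCB1 lies at 0.03.

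The cluster at 17q24 holds ABCA8, ABCA9, ABCA6, ABCA10 and ABCA5 in this order, all on the minus strand, over 460 kb (chr17:68867289-69327244, GRCh38). These lipid transporter-like proteins resemble each other, and their substrates are less well known than those of ABCA1. ABCA6 had 4, 6, 9 and 6 counts in the mock libraries and 59, 44 and 69 in the ΔNFATC4 libraries. Its mean rose from 0.268 ± 0.110 (SD, n = 4) to 2.64 ± 0.897 CPM (SD, n = 3), and the groups did not overlap. The log2 fold change was 3.28 with a standard error of 0.32, and the edgeR adjusted p was 3.63e-07. With 9 counts or fewer in every mock library, ABCA6 had enough counts to be tested only through the ΔNFATC4 libraries.

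ABCA9 was 1.21, 1.72, 1.51 and 1.26 CPM in mock and 6.31, 6.47 and 9.12 CPM in ΔNFATC4 libraries. All ΔNFATC4 values exceeded all mock values, with a log2 fold change of 2.35 (SE 0.17, edgeR adjusted p 8.52e-09). ABCA10 was 1.13, 1.21, 1.37 and 1.26 CPM in mock and 5.95, 5.61 and 5.96 CPM in ΔNFATC4 libraries. It had the narrowest spread of the 3, and its log2 fold change was 2.23 (SE 0.15, edgeR adjusted p 2.88e-09). ABCA9 shares 5.9% of its exon length with the antisense gene ABCA9-AS1, and ABCA10 shares 3.8% of its exons with ABCA5 on the same strand.

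The outer genes of the cluster were more abundant and were not called. ABCA8 had 28.0, 33.0, 34.7 and 31.7 CPM in mock and 29.3, 30.8 and 27.4 CPM in ΔNFATC4 libraries. The groups overlapped, and its log2 fold change was -0.12 with a 95% interval from -0.29 to 0.04 (edgeR adjusted p 0.359). ABCA5 had 46.5, 54.7, 47.4 and 41.8 CPM in mock and 53.4, 54.0 and 61.9 CPM in ΔNFATC4 libraries. Its log2 fold change of 0.25, with an interval from 0.08 to 0.42, missed the threshold narrowly (edgeR adjusted p 0.0502), and it passed in 4 of 15 alternative analyses. Within 500 kb of ABCA6, the only gene beyond the family with enough counts was the kinase gene MAP2K6, at a log2 fold change of -0.15 (edgeR adjusted p 0.203).

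**Figure D3:**
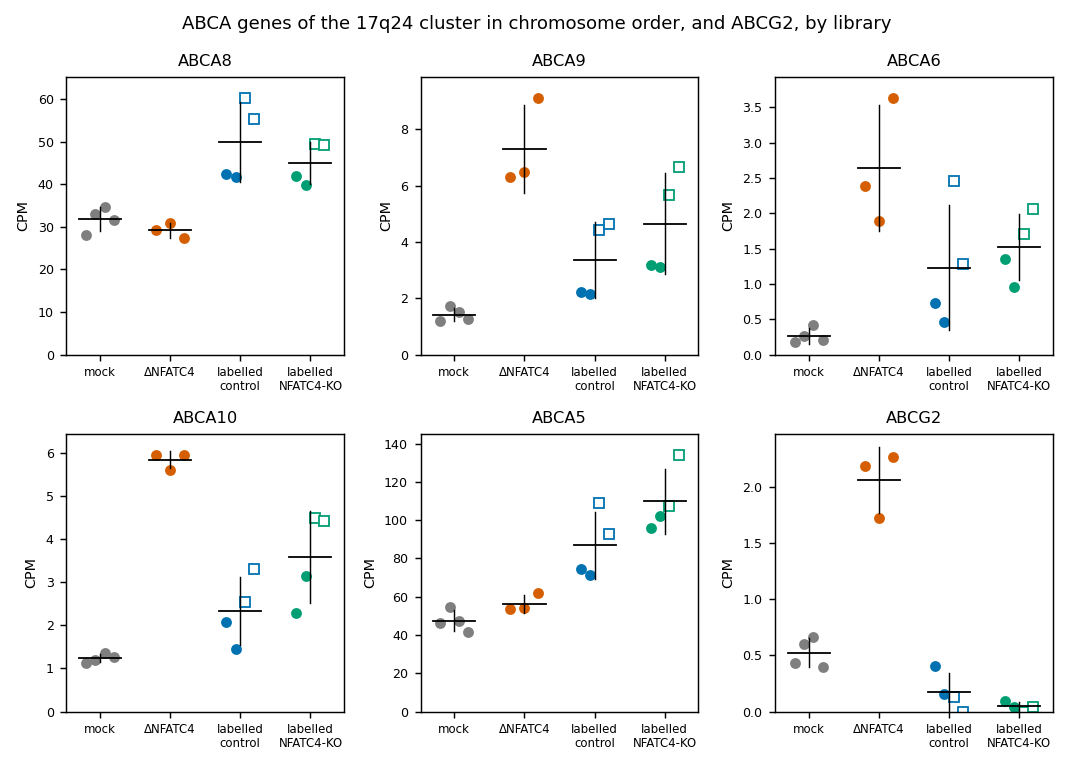
CPM of the 5 chromosome 17 ABCA genes in chromosome order and of ABCG2 by group, with 1 point per library, the mean as a horizontal line and 1 SD as a vertical line; open squares are the second set of control and NFATC4-KO libraries. The 3 inner cluster genes and ABCG2 are higher in the 3 ΔNFATC4 than in the 4 mock libraries without overlap, while ABCA8 and ABCA5 overlap.

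Among the 13 genes of drug and conjugate efflux, 10 were tested and 2 were higher. Beside this and the group counts below, 7.69% of all genes tested were higher and 6.1% were lower. ABCG2, the breast cancer resistance protein, was 0.434, 0.603, 0.659 and 0.395 CPM in mock and 2.19, 1.73 and 2.27 CPM in ΔNFATC4 libraries. These were 10 to 14 counts against 40 to 54 counts per library. The groups did not overlap, and the log2 fold change was 1.99 (SE 0.25, edgeR adjusted p 1.17e-05). As stated above, ABCG2 had enough counts to be tested only through the ΔNFATC4 libraries, where it is high. ABCC1, which exports glutathione conjugates, was 53.6, 63.4, 65.3 and 62.1 CPM in mock and 70.0, 81.5 and 74.4 CPM in ΔNFATC4 libraries. It was 1.23-fold higher (log2 0.30, SE 0.07, edgeR adjusted p 0.00782), a call that was lost without ΔNFATC4 replicate 2 and with all 15 libraries in 1 fit with 4 means (adjusted p up to 0.0918).

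No change of ABCB1 was detected in the same libraries. Its log2 fold change was 0.03, with a 95% interval from -0.08 to 0.15 and overlapping groups (edgeR adjusted p 0.773), so a rise above 1.11-fold lay outside the interval. Its neighbour ABCB4, 22.6 kb away on chromosome 7, had a log2 fold change of 0.01 (interval -0.14 to 0.15, edgeR adjusted p 0.969). Of the 9 other genes tested within 500 kb of ABCB1, 0 rose and 3 fell slightly. These 3 were CROT at -0.27, SLC25A40 at -0.24 and ADAM22 at -0.23 on the log2 scale. The organic anion exporter ABCC3 was 0.477, 0.388, 0.188 and 0.431 CPM in mock and 0.809, 0.647 and 0.738 CPM in ΔNFATC4 libraries. It did not overlap but missed the threshold, at a log2 fold change of 0.95 with an interval from 0.25 to 1.65 (edgeR adjusted p 0.0669). With 11, 9, 4 and 12 counts in mock, ABCC3 had enough counts to be tested only through the ΔNFATC4 libraries, where it is high.

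In the group of sterol and lipid exporters, 6 of 12 members were tested and 0 were called, with log2 fold changes from -0.09 to 0.33. ABCA1 lay at the upper end, with 7.33, 10.8, 9.93 and 8.79 CPM in mock and 10.7, 12.9 and 11.1 CPM in ΔNFATC4 libraries. The lowest ΔNFATC4 value fell below the highest mock value. The log2 fold change was 0.33 with an interval from 0.09 to 0.58 (edgeR adjusted p 0.0682), and it passed in 3 of 15 alternative analyses. ABCG1, which also exports cholesterol, had a log2 fold change of 0.12 (edgeR adjusted p 0.492). Of 13 partner genes of sterol export, 2 rose and 1 fell. NR1H3, the liver X receptor gene that regulates ABCA1, rose by 0.52 on the log2 scale (edgeR adjusted p 0.0246), the HDL receptor gene SCARB1 rose by 0.22 (edgeR adjusted p 0.022), and the sterol regulator SREBF1 fell by 0.21 (edgeR adjusted p 0.0306).

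The peroxisomal fatty acid carriers ABCD2 and ABCD3 were at -0.13 and -0.09 and were not called, and 0 of 8 peroxisome partner genes were called. Among the 6 mitochondrial and lysosomal members, ABCB6, a porphyrin transporter, was lower. It had 33.8, 34.3, 37.6 and 33.9 CPM in mock and 27.8, 26.5 and 27.1 CPM in ΔNFATC4 libraries, a log2 fold change of -0.36 (SE 0.07, edgeR adjusted p 0.00161). Here 87.2% of the 100-base windows of the ABCB6 transcript also occur in an overlapping gene on the same strand (ENSG00000284820), so these counts may be split, and the call was lost in the fit of all 15 libraries with 4 means (adjusted p 0.0607). The 4 ribosome-associated members ranged from 0.01 to 0.18 on the log2 scale. None of the 4 was called, and 0 of 6 translation partners were called. The KATP channel subunit gene ABCC9 was at 0.04 and was not called, and the channel pore gene KCNJ8 was at -0.16 without a call. TAP1 and TAP2, ABC genes outside the naming rule that load peptides for antigen presentation, were at 0.08 and -0.11 and were not called.

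Markers of other cell types were checked beside these values. Their summed level was 84.6 to 99.5 CPM in mock and 102.5 to 107.3 CPM in ΔNFATC4 libraries. Of the 9 markers, 5 were tested, and COL3A1 (log2 1.66) and CD68 (log2 1.82) were higher and SYP (log2 -0.28) was lower. PECAM1 and VWF were at 0 in all mock libraries. The summed level of the 9 adrenocortical markers overlapped, at 2131 to 2340 CPM in mock and 2168 to 2471 CPM in ΔNFATC4 libraries, with MC2R (log2 0.97), HSD3B2 (log2 0.60) and CYP21A2 (log2 0.24) higher and CYP17A1 (log2 -0.45) lower. The part of these differences in the ABC results was not tested.

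The sets of control and NFATC4-KO libraries are compared as a description, with no test, since they were found from these libraries. Counting the 37 members with enough counts, 8 were higher in the second set than the first without overlap, beside 17.3% of 14368 genes, and 6 were lower, beside 20%. The other 23 overlapped. At least 2-fold apart without overlap were 2 higher members, beside 3.33% of all genes, and 3 lower members, beside 4.71%. ABCA9 lay at the 2-fold limit and was no longer counted when control 1, control 2, NFATC4-KO 3 or NFATC4-KO 5 was left out, ABCC3 was not counted without NFATC4-KO 1, and ABCC9 was not counted without control 1, NFATC4-KO 3 or NFATC4-KO 5, so that leaving out 1 library gave 1 to 3 higher and 2 to 3 lower members. The median log2 difference was 0.10 over the members and 0.00 over all genes.

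ABCB1 was among the 8 higher members. Its mean was 508 ± 34.5 CPM in the first set and 701 ± 91.6 CPM in the second (SD, n = 4 each), a log2 difference of 0.46. ABCB4 moved in the same direction, from 73.8, 70.5, 52.3 and 50.6 CPM to 124, 124, 93.1 and 72.1 CPM, with a log2 difference of 0.74. Its lowest second-set library, NFATC4-KO 5, lay below the highest first-set library, control 1. ABCA9 rose from 2.23, 2.15, 3.20 and 3.10 CPM to 4.44, 4.63, 5.68 and 6.64 CPM, a log2 difference of 1.00. ABCC3 went from 0.689, 0.742, 0.388 and 0.503 CPM to 1.21, 1.19, 1.45 and 1.11 CPM, a log2 difference of 1.10. The other members that were higher without overlap included ABCA7, ABCA8, ABCB6 and ABCF2, at log2 differences from 0.15 to 0.44.

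The 3 members at least 2-fold lower in the second set were ABCC4, ABCG1 and ABCC9. ABCC4, an exporter of cyclic nucleotides and prostaglandins, was 10.5, 9.02, 9.93 and 10.4 CPM in the first set and 4.61, 2.98, 3.67 and 2.79 CPM in the second. The log2 difference was -1.51. ABCC4 was 10.2, 12.9, 11.2 and 9.04 CPM in mock and 10.8, 12.0 and 11.4 CPM in ΔNFATC4 libraries, all above the second set. The cholesterol exporter ABCG1 was 19.4, 19.5, 21.2 and 20.2 CPM in the first set and 7.45, 8.89, 8.58 and 10.2 CPM in the second, a log2 difference of -1.19. ABCG1 was 11.5, 12.5, 10.6 and 12.2 CPM in mock and 14.7, 11.7 and 11.8 CPM in ΔNFATC4 libraries, between the sets. ABCC9, the sulfonylurea receptor subunit SUR2, was 5.55, 4.06, 3.63 and 4.02 CPM in the first set and 3.10, 1.88, 1.54 and 1.59 CPM in the second, a log2 difference of -1.09. ABCC9 was 2.13, 2.11, 1.60 and 1.76 CPM in mock and 2.27, 1.64 and 1.95 CPM in ΔNFATC4 libraries, within the range of the second set. The pore gene KCNJ8 that pairs with it was at 36.6 and 68.5 CPM in the first and second sets. ABCA3, ABCD2 and ABCF1 were lower by smaller amounts, at -0.17, -0.26 and -0.29.

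ABCA1 was higher in the second set, but the sets overlapped. It was 17.2, 15.8, 11.9 and 11.4 CPM in the first set and 22.9, 20.1, 16.5 and 15.6 CPM in the second. ABCA6 also overlapped, at 0.729, 0.468, 1.36 and 0.964 CPM in the first set and 2.45, 1.28, 1.71 and 2.06 CPM in the second. All 8 values of ABCA6 exceeded the highest mock library (0.424 CPM). Mock and these libraries belong to separate transfection experiments as well as to different labels, and the NFATC4-KO cells were also grown up from single cells. ABCG2 had 10, 4, 3 and 0 counts in control and 2, 1, 0 and 1 in NFATC4-KO libraries, too few for a comparison between the sets. Marker levels moved with the sets too. The summed level of the 9 adrenocortical markers was 1563 to 2260 CPM in the first set and 1103 to 1320 CPM in the second. At least 2-fold lower without overlap in the second set were 3 of the 9, STAR, CYP17A1 and CYP21A2, while MC2R was at 4.86 and 3.96 CPM and HSD3B2, in the other direction, at 30.7 and 37.1 CPM in the first and second set. The summed level of the markers of other cell types was 69.6 to 73.7 CPM in the first set and 41.3 to 45.2 CPM in the second. The part of this in the ABC differences was not tested.

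Between NFATC4-KO and control libraries, as labelled, 34 members were tested by edgeR and 0 were called, beside 0% of 13868 genes. At an unadjusted p under 0.05 there were 4 of the 34 members, beside 9.06% of all genes, so this count is not read as a result about the family. The 4 were ABCA1, ABCB11 and ABCC1 (lower) and ABCB9 (higher). DESeq2 and limma-voom also called 0 members. ABCB1 was at 655 ± 137 CPM in control and 554 ± 93.2 CPM in NFATC4-KO libraries (SD, n = 4 each), with a log2 fold change of -0.25 and an interval from -0.64 to 0.15 (edgeR adjusted p 0.769).

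With the set as a term in the fit, 4 members were called higher in NFATC4-KO, beside 4.39% of all genes, and 5 lower, beside 6.04%. The sets were found from the expression of these same libraries, so p-values with the set term may be too small. The block on the replicate number coincides in part with the sets and used only numbers found in both labels, so control 4 and NFATC4-KO 5 were left out. It gave 2 calls, ABCB4 and ABCA1, both lower, beside 139 calls over all genes. The other members called with the set term were not called with the block. With the set term the clearest was ABCB4. In the first set it was 73.8 and 70.5 CPM in control and 52.3 and 50.6 CPM in NFATC4-KO, and in the second set 124 and 124 against 93.1 and 72.1 CPM. The log2 fold change with the set term was -0.54 (SE 0.07, edgeR adjusted p 2.06e-04). ABCA1 was lower in both sets, at log2 differences of -0.50 and -0.42, and at -0.46 with the set term (SE 0.08, edgeR adjusted p 0.00144). ABCB1 was at -0.17 in the first and -0.30 in the second set and at -0.24 with the set term (SE 0.05, edgeR adjusted p 0.0072). The drug exporter ABCC1 (-0.21) and the bile salt exporter ABCB11 (-1.01) were the other members lower. ABCB11 was 1.01, 1.60, 1.55 and 2.47 CPM in control and 0.533, 0.629, 0.982 and 1.16 CPM in NFATC4-KO libraries, and it had 7 to 54 counts per library over the whole series. Its groups overlapped when the sets were pooled.

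In the 17q24 cluster ABCA5 (0.34), ABCA9 (0.47) and ABCA10 (0.62) were higher in NFATC4-KO with the set term, with edgeR adjusted p values of 0.00635, 0.0241 and 0.022. ABCA9 and ABCA10 were also higher in ΔNFATC4 than in mock. ABCC1 was called in both comparisons in opposite directions, at 0.30 in ΔNFATC4 against mock and -0.21 in NFATC4-KO with the set term. The share of all genes called in both comparisons was not worked out. Without the set term neither ABCA9 nor ABCA10 was called between NFATC4-KO and control (edgeR adjusted p 0.806 and 0.616). Neither was called there with the replicate block or within either set. ABCA10 was 2.07 and 1.44 CPM in control and 2.28 and 3.14 CPM in NFATC4-KO libraries of the first set, and 2.54 and 3.30 against 4.48 and 4.42 CPM in the second. In the fit with the set term ABCA6 was not called, at 0.33 with an interval from -0.22 to 0.89 (edgeR adjusted p 0.465). The lysosomal peptide transporter ABCB9 was higher by 0.37, and genes on the opposite strand overlap 20.7% (ENSG00000256028), 12.5% (OGFOD2) and 12.0% (ARL6IP4) of its exon length. In edgeR's interaction test the NFATC4-KO effect differed between the sets at an adjusted p under 0.05 for 0 of the 34 members, beside 0.31% of all genes. At an unadjusted p under 0.05 there were 6 members, beside 19.8% of all genes.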

How the data were processed

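RNA-Seq of NCI-H295R cells was deposited as 1 table per library, which holds raw counts of reads per gene. The authors aligned reads with STAR to GRCh38.p13 (GENCODE release 37) and counted them with featureCounts; tool versions, the strand setting and the handling of reads with several matches are not given in the sources used here. Their differential test was DESeq2. Symbols were matched for 21400 of 21493 identifiers, and exon lengths came from GENCODE release 44. Counts were normalized by TMM and tested with edgeR 4.0.16 (glmQLFit, robust) in R 4.3.3, with filterByExpr and Benjamini-Hochberg adjustment over all genes tested, and the test was tested on simulated data. DESeq2 1.42.0, limma 3.58.1 (voom), other filters, normalizations, sets of libraries and single libraries left out were alternatives.

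The members, the library sets and all gene lists were chosen with earlier results of these data known. Every member could be named. Values in every library were given for ABCB1, ABCA1, ABCA6, members called with at least a 2-fold change between ΔNFATC4 and mock and members at least 2-fold apart between sets, and other members were given so where a sentence turns on them. Levels per length were given for the 10 highest members, apart from 1 member whose results are not reported here. At most 4 genes per partner list were named, by the smallest p, apart from NR5A1, CYP11A1, STAR and markers near 0, which were picked after their values were seen. Promoter windows were RefSeq's. Nothing in the labels says that replicates were separate cultures, so p-values measure the spread between libraries. No replicate pair differed by less than sampling noise. Same-numbered ΔNFATC4 and mock libraries deviated together by 0.101, -0.09 and 0.04 (correlations), and were not paired. Same-numbered control and NFATC4-KO libraries correlated at 0.81, 0.788 and 0.71, where numbers 1 and 2 are the first set and 3 the second.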

Additional observations from a re-analysis of the deposited data

Results flagged for a closer look

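Among the groups of 4 libraries examined, 2 ABC values stood far from the other 3 of their group, where chance gives such a gap in about 1 in 20 groups and 51 were examined. ABCB6 was 37.6 CPM in mock replicate 3, above the 33.8 to 34.3 CPM of the other mock libraries. ABCB9 was 13.5 CPM in mock replicate 4, below the 17.2 to 17.5 CPM of the other mock libraries.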

How the results depend on the processing

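ABCA6, ABCA9, ABCA10 and ABCG2 were called higher in ΔNFATC4 in every alternative that tested them (14 or 15 each), and no named change reversed. The alternatives draw on the same ΔNFATC4 and mock libraries, so they are not independent of the main test. ABCA6 and ABCG2 had enough counts for the main test only through the ΔNFATC4 libraries, where they are high. ABCA6 and ABCG2 were not tested where at least 50 counts were required in 3 libraries. With all 15 libraries and 4 means, 0 ABC genes were lower, 326 genes were higher and 204 lower. Leaving out 1 library gave 644 to 1341 higher and 458 to 1219 lower genes, with 644 and 458 without ΔNFATC4 replicate 2, and 485 and 493 lower without replicates 1 and 3. The replicate block, which left out mock replicate 4, kept 6 higher and 1 lower ABC genes between ΔNFATC4 and mock. Calls of ABCC1 and ABCB6 could be lost.

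Between NFATC4-KO and control, ABC calls numbered 10 of 37 members tested with 6 means and 2 of 34 with the replicate block. They numbered 9 of 34 with the set term, 6 of 34 within the first set and 7 of 35 within the second. Over all genes these gave 1737, 139, 1446, 2314 and 1308 calls, DESeq2 gave 168, the fit with 4 means 62, and leaving out 1 library 0 to 1 (1 without NFATC4-KO replicate 3). With the set term, 4.39% of 13868 genes were higher and 6.04% lower. For the other fits the share of all genes was not worked out, so their ABC counts are not read as a result about the family. Between the sets, 1 ABC gene was higher with at least 50 counts required in 3 libraries, 1 to 3 when leaving out 1 library (1 without control 1, control 2, NFATC4-KO 3 or NFATC4-KO 5) and 2 to 3 were then lower, and 5 were lower in control libraries alone. ABCB1's share was 23.0% with the longest transcript as length. Fits by set rest on 2 libraries per label. The causes were not tested. Members under 1 CPM had too few counts for small changes to be detectable.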
